A study of Mus musculus with 8 samples.

Results

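The genes described here are Cd74, H2-Aa, H2-Ab1, H2-Eb1 and Ciita, which make up the core of antigen presentation by MHC class II. They were taken by symbol from the UMI table of a 10x multiome experiment, and all 5 were present among its 32285 genes. The nuclei came from marrow cells sorted as Lin-Sca1+ckit+ (LSK), the compartment of blood stem cells and their first multipotent descendants. The series compares wild-type (WT) mice with littermates that carry the T58A point mutation of MYC, in 2 expression and 2 accessibility samples per genotype, each pooled from 2 mice. Mice of both genotypes were sorted by the same LSK markers. Age, sex and strain were not stated in the labels, and the accessibility data were not analysed here.

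The table holds 45723860 UMIs from 8708 nuclei, with a median of 4148 UMIs per nucleus. The barcodes end in 1 of 4 suffixes, and these barcode sets hold 2999, 721, 2756 and 2232 nuclei. Which suffix belongs to which mouse sample is not labelled, and the table is named for T58A alone, so no genotype comparison was made. The whole table is therefore 1 sample without replicates. Values by barcode set are given to show their spread, no p-value was made from nuclei, and each 95% interval covers counting error only. Sets 1 and 3 had 24.6% and 24.2% of UMIs from mitochondrially encoded genes, against 9.98% in set 2 and 9.22% in set 4, and 36 barcode sequences occurred in more than 1 set. Nuclei were assigned to 14 gates by marker lists that hold none of the 5 genes. A nucleus needed at least 3 detected markers of a list, and the list with the highest share of markers detected gave the gate. In all, 5833 nuclei were gated, and 1544 nuclei met more than 1 list.

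MHC class II molecules display peptides from engulfed or internalized protein to CD4+ T cells. Each is a pair of an alpha and a beta chain: H2-Aa and H2-Ab1 encode the chains of I-A in the mouse, and H2-Eb1 encodes the beta chain of I-E. Cd74 encodes the invariant chain, which binds newly made class II molecules, blocks their groove and guides them to endosomes. It also serves as a surface receptor for the cytokine MIF. Ciita encodes the class II transactivator, a coactivator that does not bind DNA itself but is recruited by RFX, CREB and NF-Y proteins at class II promoters. Dendritic cells and B cells are the classic bearers of class II, and B cells are known to lose it as they become plasma cells.

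The promoters of 2 members were held by the RefSeq table for GRCm38.p6. They are shown because they hold the letters of elements at which Ciita is known to act. H2-Aa lies on chromosome 17 from 34282744 to 34287823 on the minus strand and H2-Eb1 from 34305867 to 34316674 on the plus strand, with H2-Ab1 beside them from 34263227 to 34269418. Each sequence covers 250 bases before to 50 bases after the start of the gene, 5′ to 3′ on the strand of the gene, at chr17:34287774-34288073 for H2-Aa and chr17:34305617-34305916 for H2-Eb1. Capitals mark GCAAC, a stretch found in the X box that RFX binds, and ATTGG, the reversed CCAAT of the Y box that NF-Y binds.
H2-Aa: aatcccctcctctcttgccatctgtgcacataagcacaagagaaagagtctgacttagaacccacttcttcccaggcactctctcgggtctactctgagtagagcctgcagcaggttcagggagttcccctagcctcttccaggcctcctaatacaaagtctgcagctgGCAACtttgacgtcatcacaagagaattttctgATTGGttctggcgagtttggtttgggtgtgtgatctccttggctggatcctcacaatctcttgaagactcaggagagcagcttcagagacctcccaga
H2-Eb1: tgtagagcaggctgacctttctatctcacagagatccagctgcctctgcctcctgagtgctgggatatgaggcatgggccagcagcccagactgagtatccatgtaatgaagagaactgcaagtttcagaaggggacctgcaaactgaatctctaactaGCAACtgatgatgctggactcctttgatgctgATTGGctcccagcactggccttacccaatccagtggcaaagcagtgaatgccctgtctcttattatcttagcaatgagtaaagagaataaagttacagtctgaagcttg
In H2-Aa the capitals begin 81 and 48 bases before the start, with 28 bases between them, and in H2-Eb1 they begin 91 and 59 bases before it, with 27 bases between them. Searched on both strands, ATTGG occurred in 37.4% and GCAAC in 35.2% of the 32851 promoters of the table. GCAAC followed by ATTGG on the same strand after 20 to 45 bases occurred in 1.16% of them (381 promoters). A match describes the letters and not a bound site.

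Most UMIs of the 5 genes lay in one small gate. The conventional dendritic gate held 123 nuclei, 1.41% of the table, set by genes such as Xcr1, Clec9a, Cadm1, Zbtb46 and Naaa. It held 60.2% of the 5463 UMIs of the 4 chain genes (Cd74, H2-Aa, H2-Ab1 and H2-Eb1, summed here as class II). By gene, that gate held 56.1% of the 2117 Cd74 UMIs, 63.5% of the 1297 H2-Aa UMIs and 57.5% of the 1285 H2-Ab1 UMIs. It also held 70.3% of the 764 H2-Eb1 UMIs and 69.2% of the 530 Ciita UMIs. Over all nuclei, 1270 had a UMI of any member and 1189 (13.7%) had a class II UMI. Levels are given below as counts per 1000000 UMIs (CPM) of a gate. They are not scaled for gene length, so each gene is compared between gates and not with another gene.

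**Figure D1:**
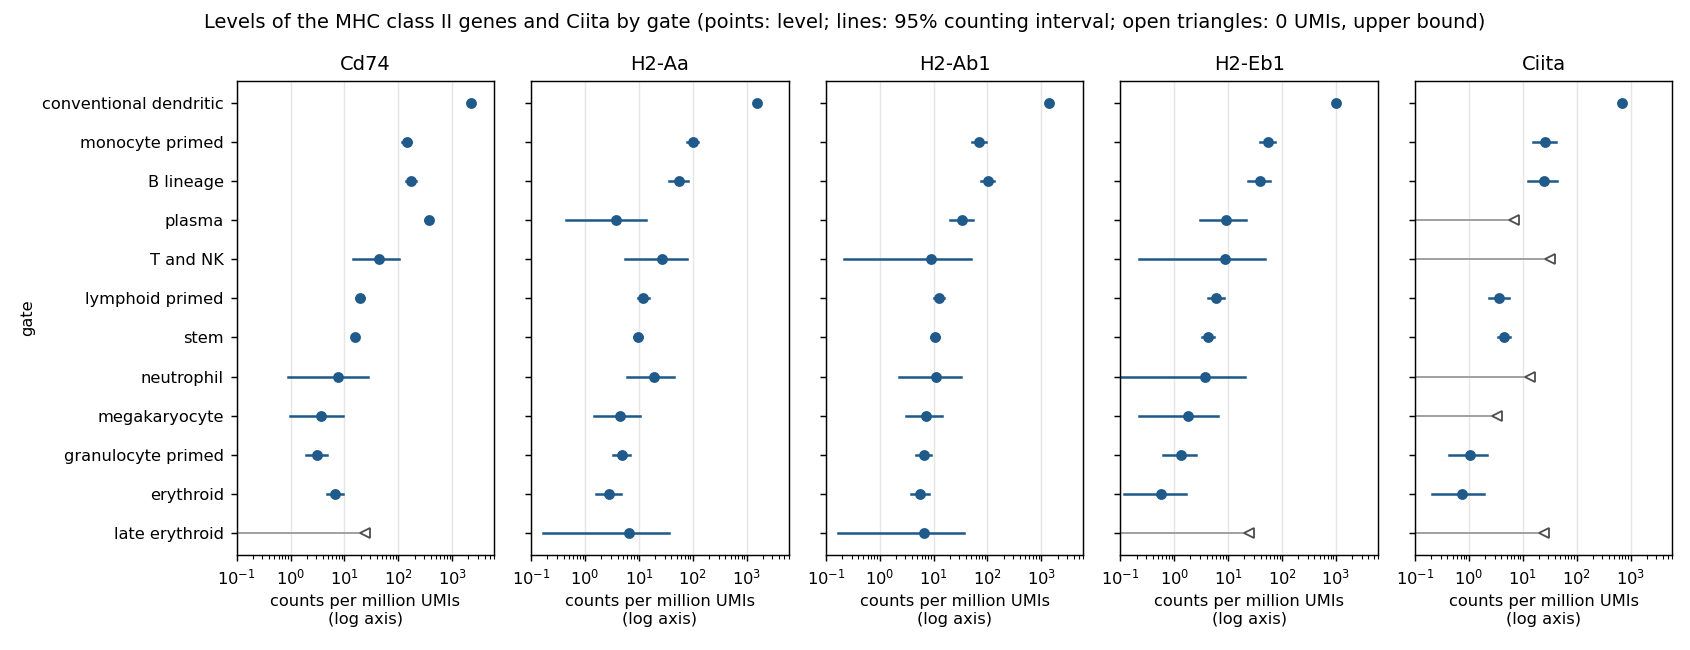
Level of each gene (counts per 1000000 UMIs, log axis) in the 12 gates with at least 30 nuclei, with the 95% counting interval as a line and open triangles at the upper bound where no UMI was found. All 5 genes are highest in the conventional dendritic gate, and in the plasma gate Cd74 stands at 367 CPM while no Ciita UMI was found.

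Ciita, the coactivator, was at 687 CPM (95% interval 619 to 761) in the conventional dendritic gate. It was at 26.1 CPM (15.7 to 40.8) in the monocyte primed gate and at 24.6 CPM (12.7 to 42.9) in the B lineage gate, and these intervals overlapped. The stem gate, 2487 nuclei set by Procr, Hlf, Mecom, Fgd5 and others, had 4.44 CPM (3.40 to 5.71), and the lymphoid primed gate had 3.65 CPM (2.32 to 5.48). The granulocyte primed gate at 1.05 CPM (0.423 to 2.17) and the erythroid gate at 0.754 CPM (0.205 to 1.93) followed. No Ciita UMI was found among 536940 UMIs of the plasma gate, which allows up to 5.59 CPM, or among those of the megakaryocyte gate, which allows up to 2.71 CPM. The neutrophil, T and NK, late erythroid and mast and basophil gates also had none, but these are small and allow from 11.2 to 26.3 CPM. Among the gates with enough counts the order was therefore dendritic, then monocyte primed and B lineage together, then stem and lymphoid primed together, then granulocyte primed and erythroid together. The monocyte primed place rests on 18 nuclei that also met the dendritic list, with 18 Ciita UMIs. The other 86 nuclei of that gate had 1 UMI, 1.65 CPM. The gates without a UMI have no place in this order where their bounds reach past the stem level, as in the plasma gate. The gene lies on chromosome 16 from 10480014 to 10531064 (GRCm38.p6) and was the longest of the 5 at 51.1 kb.

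By barcode set, Ciita in the dendritic gate was at 837, 814, 936 and 534 CPM in sets 1 to 4. In the stem gate it was at 3.21, 2.38, 8.39 and 3.28 CPM, so that no set of the stem gate came near any set of the dendritic gate. The ratio of dendritic to stem was 155 (118 to 206) over the table, and 261, 342, 112 and 163 by set. In the B lineage gate Ciita was at 21.5, 0, 35.2 and 14.8 CPM, on 4, 0, 7 and 1 UMIs. The ratio of B lineage to stem was 5.53 (2.71 to 10.4), a value that rests on 12 UMIs.

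H2-Aa, the alpha chain of I-A, was at 1543 CPM (1439.8 to 1652) in the dendritic gate. By set it was at 882, 2264, 1181 and 1715 CPM, all above the highest set of any other gate named below. It was at 98.98 CPM in the monocyte primed, 55.3 CPM (36.4 to 80.4) in the B lineage, 12.1 CPM (9.51 to 15.1) in the lymphoid primed and 9.61 CPM (8.04 to 11.4) in the stem gate. In the stem gate the sets lay close together, at 8.02, 9.52, 10.1 and 10.00 CPM. The plasma gate had only 2 H2-Aa UMIs, 3.72 CPM (0.451 to 13.5), and did not differ from the erythroid gate at 2.83 CPM (1.58 to 4.66) beyond counting error.

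H2-Ab1, the beta chain of I-A, was at 1384 CPM (1286 to 1488) in the dendritic gate, with 927, 2035, 1062 and 1517 CPM in the 4 sets. It was at 102 CPM (75.99 to 135) in the B lineage, 70.1 CPM (52.2 to 92.2) in the monocyte primed and 33.5 CPM (19.9 to 52.98) in the plasma gate. The B lineage value leaned on set 1, with 209.9, 28.02, 50.2 and 0 CPM by set. In the stem gate the sets again lay together, at 9.22, 10.1, 10.7 and 11.6 CPM. H2-Eb1, the beta chain of I-E, was at 1006 CPM (923 to 1095) in the dendritic gate, with 746, 1704, 755 and 1071 CPM by set. It had 3 UMIs in the erythroid gate (0.566 CPM, 0.117 to 1.65), and was at 4.22 CPM (3.21 to 5.46) in the stem gate. Its ratio of dendritic to stem was 238, against 161 for H2-Aa, 143 for Cd74 and 128 for H2-Ab1.

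Cd74, the invariant chain, lies on chromosome 18 from 60803849 to 60812652 (GRCm38.p6). It was at 2225 CPM (2100.4 to 2355) in the dendritic gate, with 1447, 3282, 1775 and 2412 CPM by set. The plasma gate was the next highest at 367 CPM (317 to 422), followed by the B lineage gate at 172 CPM (137 to 213) and the monocyte primed gate at 143 CPM, whose intervals overlapped. The plasma value of set 2, 1458 CPM from 2 nuclei, reached the dendritic value of set 1. The lymphoid primed gate had 19.7 CPM (16.4 to 23.5) and the stem gate 15.6 CPM (13.6 to 17.8), with overlapping intervals. The erythroid gate at 6.79 CPM (4.75 to 9.40), the megakaryocyte gate at 3.61 CPM and the granulocyte primed gate at 3.16 CPM (1.95 to 4.83) were lowest among gates with a UMI and more than 100 nuclei.

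Of the 123 dendritic nuclei, 120 had more type 1 than type 2 dendritic genes detected. All type 1 genes of that rule also set the gate, so this count was largely fixed by the gate. Cd209a and Mgl2 of type 2 cells were at 0, and Irf4 had no UMI. A further type 2 gene, Clec10a, had 4 UMIs, 7.49 CPM against 2.10 CPM in other nuclei. Irf8, needed for type 1 dendritic cells, was at 1249 CPM there and 69.2 CPM in other nuclei. The summed class II level was 6158 CPM, and 4002, 9285, 4773 and 6714 CPM in sets 1 to 4, from 15, 8, 43 and 57 nuclei. Against the stem gate that was 153-fold higher (140.0 to 168), and 135, 229, 101 and 166-fold by set. Clusters made without the class II genes gave 97.99-fold, and leaving out doublet-marked nuclei gave 212-fold. These nuclei came through a sort for lineage-negative cells, and Flt3, a receptor that both early progenitors and dendritic cells carry, had a UMI in 80.5% of them and in 51.2% of all other nuclei.

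Within the dendritic gate, 111 of 123 nuclei had at least 3 class II UMIs, with a median of 22.00 and a highest of 152. Both class II and Ciita UMIs were found in 98 nuclei, class II alone in 16, Ciita alone in 2 and neither in 7. All 4 chain genes were found in 94 nuclei and all 5 members in 85. The nuclei with neither were not shallow, with a median of 4378 UMIs against 3493 in those with both. Across the 123 nuclei, class II and Ciita (log2 of counts per 10000 UMIs plus 1) had a Pearson r of 0.38, a description of nuclei that share libraries and differ in depth. The class II level of single nuclei ran from 0 to 30479 CPM with a median of 5354 CPM and quartiles at 3179 and 9506 CPM.

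Dendritic nuclei that carried at least 2 of 6 cell division genes had less class II. The 38 such nuclei were at 4581 CPM, and the 85 others at 7291 CPM, a ratio of 1.59 (1.48 to 1.72). The others were higher in all 4 sets, at 3.44, 4.60, 1.74 and 1.28-fold. The values of sets 1 and 2 rest on only 6 and 2 dividing nuclei, and that of set 4 on 17. The dividing nuclei were deeper, at a median of 4888 against 3209 UMIs, and the part of depth in this difference was not tested. Ciita followed with 849 CPM in the others and 462 CPM in the dividing nuclei, 1.84-fold (1.46 to 2.33). The number of dendritic markers detected also moved with class II. The 90 nuclei with 6 or more markers were at 6769.6 CPM, and the 33 nuclei with 3 to 5 were at 3537 CPM. Ciita was at 771 and 327 CPM in those nuclei. Their median depths were 3799.5 and 2597 UMIs, and the part of depth in this difference was not tested. Nuclei with a UMI of Flt3, the receptor of the main dendritic growth factor, were at 6450.5 CPM (99 nuclei) and those without at 4754 CPM (24 nuclei).

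The monocyte primed gate, 104 nuclei set by Csf1r, Ly86, Ccr2, Ms4a6c and others, held class II in few of its nuclei. A share of 96.6% of its 267 class II UMIs lay in 15 nuclei with at least 3 each, and 14 of these 15 also met the dendritic list. The 18 monocyte primed nuclei that met the dendritic list were at 2038 CPM (1793 to 2307) of class II and 147 CPM of Ciita. The 86 that did not were at 29.7 CPM (17.6 to 47.00) of class II and 1.65 CPM of Ciita. The latter class II level lies within the range of the progenitor gates below. The gate as a whole, at 367 CPM, was thus a mixture of nuclei at very different levels.

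**Figure D2:**
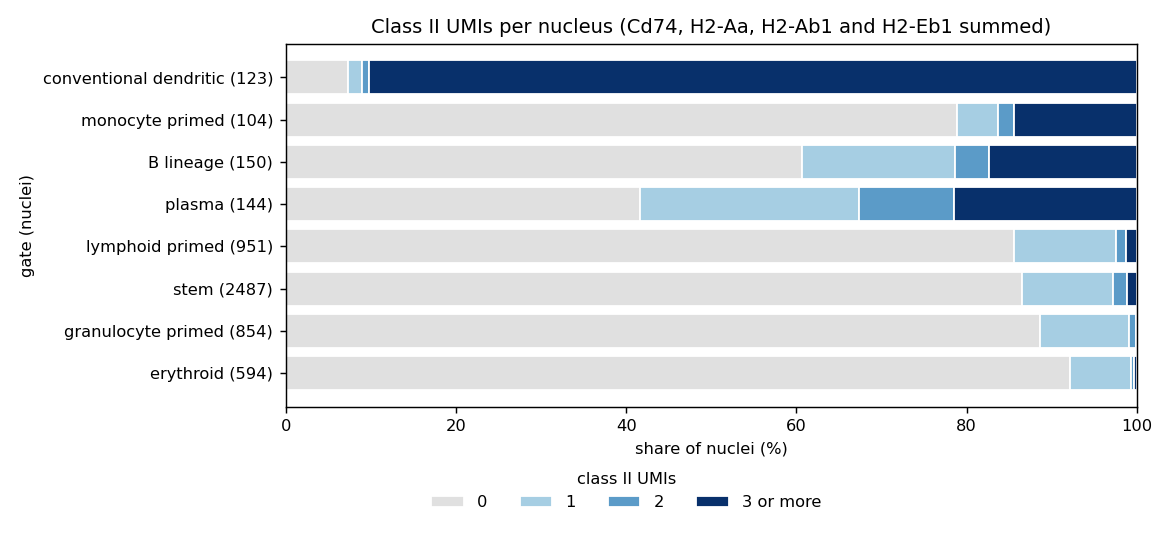
Share of nuclei (%) with 0, 1, 2 or at least 3 class II UMIs in 8 gates, with the number of nuclei beside each name. In the conventional dendritic gate 90.2% of nuclei have at least 3, in the plasma and B lineage gates 21.5% and 17.3%, and in the stem gate 1.13%.

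The B lineage gate held 150 nuclei, set by Ebf1, Pax5, Blnk, Cecr2, Cd79a and others. Its summed class II level was 369 CPM (317 to 427), 9.17-fold (7.71 to 10.9) above the stem gate. By set it was 662, 28.02, 216 and 192 CPM, from 76, 3, 57 and 14 nuclei, so set 1 stood above the others. Against the stem gate of the same set the ratios were 22.3, 0.692, 4.55 and 4.76, the second on 1 UMI in 3 nuclei. Leaving out set 1 lowered the ratio over the table to 4.43, and the clusters made without class II genes gave 4.96.

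Within the B lineage gate the class II level was highest in nuclei with late B markers. The 21 nuclei with at least 2 late B genes (such as Ms4a1, Cd22, Cr2 and Ighd) were at 1392 CPM (1116 to 1715) and the 37 nuclei with at least 2 early B genes (such as Vpreb1, Igll1 and Rag1) at 47.9 CPM (22.99 to 88.2), a ratio of 29.04 (15.1 to 62.7). The early nuclei thus stood near the stem gate, at 40.2 CPM. The remaining 92 nuclei were at 379 CPM. Of the gate's 180 class II UMIs, 88 lay in the late nuclei and 82 in these remaining ones. Of the 21 late nuclei, 15 belonged to set 1, where the ratio of late to early was 17.3, and sets 3 and 4 gave 17.5 and 60.7 from 2 and 3 late nuclei. Late nuclei were shallower, with a median of 2170.0 UMIs against 5023 in early ones, yet 85.7% of them and 24.3% of the early ones had a class II UMI. Ciita had only 2 UMIs in the late and 1 in the early nuclei, too few to compare. Pax5, the factor of B cell identity, gave another order: nuclei with a Pax5 UMI were at 305 CPM and those without at 563 CPM. Those with a Pax5 UMI were deeper, at a median of 2778 against 1592 UMIs. The ratio of with to without was 0.595 (0.410 to 0.869) in set 1 and 0.537 (0.279 to 1.07) in set 3. Set 4 went the other way, with 13 class II UMIs in 10 nuclei against 0 in 4 nuclei. The part of depth in this difference was not tested.

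Relative to all B lineage nuclei together, plasma nuclei had more Cd74 and less of the other members, though H2-Ab1 was above its level in the stem gate. The gate held 144 nuclei with at least 1% of their UMIs from Jchain, Igkc and Igha, and its other markers Prdm1, Xbp1, Mzb1 and Tent5c stood at 348, 367, 346 and 315 CPM. Cd74 was 23.5-fold (19.3 to 28.7) above the stem gate and 2.13-fold (1.64 to 2.79) above the B lineage gate as a whole. That gate is a mixture, with Cd74 at 696 CPM (506 to 934) in its late and 9.59 CPM in its early B nuclei. The plasma gate, at 367 CPM (317 to 422), was thus below the late B nuclei. H2-Ab1 was at 0.327 (0.180 to 0.571), H2-Eb1 at 0.239 (0.0698 to 0.663) and H2-Aa at 0.0674 (0.00776 to 0.268) of the B lineage level, the last from 2 UMIs. Ciita, with 12 UMIs in the B lineage gate and none here, was 4.40-fold lower when 3 UMIs over the plasma gate were taken as the floor. That fold leaves out the counting error of the 12 UMIs and is not a lower bound. The summed class II level hid this split, at 413 CPM in the plasma and 369 CPM in the B lineage gate, a ratio of 1.12 (0.917 to 1.37).

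By barcode set, Cd74 in the plasma gate was at 235, 1458, 361 and 282 CPM in sets 1 to 4, from 53, 2, 85 and 4 nuclei, and Ciita had no UMI in any set. H2-Aa had 1, 1, 0 and 0 UMIs. Against the B lineage gate of the same set, Cd74 was 0.809-fold in set 1 (0.513 to 1.26) and 3.27-fold in set 3 (2.06 to 5.41), so the higher Cd74 level of plasma nuclei did not hold in set 1. Cd74 had a UMI in 54.2% of plasma nuclei, at a median depth of 3122 UMIs, and in 2.86% of erythroid nuclei, at a median depth of 8300.0 UMIs. After thinning each nucleus to 2000 UMIs the shares were 46.2% and 1.07%, with 14 plasma and 33 erythroid nuclei too shallow to enter. Plasma nuclei with a UMI of Prdm1, which encodes Blimp-1, a known repressor of Ciita, were at 449 CPM of Cd74 and those without at 259 CPM, and neither had a Ciita UMI. Those with a Prdm1 UMI were deeper, at a median of 3506 against 2951 UMIs. The 2 nuclei of set 2 held 34 of their 137 Cd74 UMIs. The part of depth in this difference was not tested.

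The make-up of class II UMIs set the plasma gate apart. Cd74 made up 88.7% of its 222 class II UMIs (83.8 to 92.6%), against 36.1% in the dendritic (34.5 to 37.8%), 46.7% in the B lineage (39.2 to 54.2%) and 38.8% in the stem gate (34.7 to 42.97%). Stem, lymphoid primed and monocyte primed nuclei had nearly the make-up of dendritic nuclei. For H2-Aa the shares were 23.9%, 23.9%, 26.97% and 25.1% in these gates, and for H2-Ab1 26.8%, 25.2%, 19.1% and 22.5%. These shares lean on few nuclei. Of the 267 monocyte primed class II UMIs, 249 came from the 18 nuclei that also met the dendritic list. In the lymphoid primed gate 12 nuclei carried 57.2% of the class II UMIs. In the stem gate 28 nuclei carried 36.6%, and 9 of those were doublet-marked. H2-Eb1 was lower in the stem gate at 10.5% (8.08 to 13.4%) than in the dendritic gate at 16.3% (15.1 to 17.6%). In the granulocyte primed gate Cd74 made up 19.8% (12.7 to 28.7%) and H2-Ab1 41.5%, and in the erythroid gate Cd74 made up 42.9% (32.1 to 54.1%) of 84 UMIs.

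**Figure D3:**
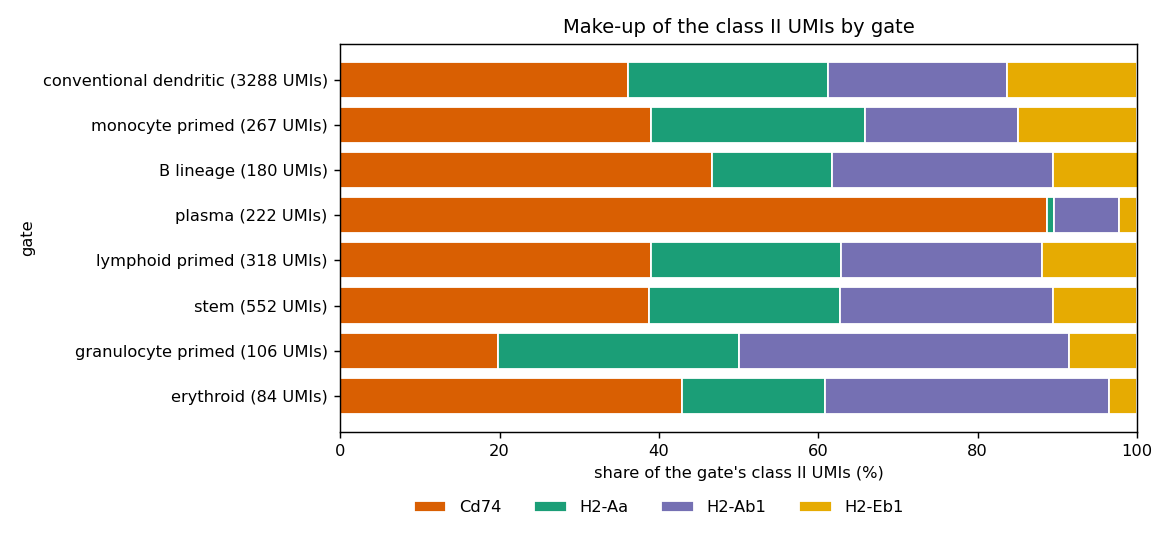
Share of class II UMIs (%) from each chain gene in 8 gates, with the number of class II UMIs beside each name. Cd74 takes 88.7% in the plasma gate and from 19.8% to 46.7% in the other gates shown.

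The stem gate had a low level of class II that was above that of the erythroid and granulocyte primed gates. The sum was 40.2 CPM (36.9 to 43.7) in stem, 15.8 CPM (12.6 to 19.6) in erythroid and 15.9 CPM (13.05 to 19.3) in granulocyte primed nuclei. Stem was 2.54-fold (2.01 to 3.23) above erythroid, a gate that is not known to make class II and was used as the background level. Granulocyte primed nuclei were at 1.01 of the erythroid level (0.749 to 1.36), and megakaryocyte nuclei at 17.1 CPM. The lymphoid primed gate, set by Dntt, Arpp21, Il7r and others, was at 50.5 CPM (45.1 to 56.4), with 71 of its 318 class II UMIs in 1 nucleus. By set it was at 32.98, 42.2, 36.3 and 66.3 CPM, below the stem gate in set 3 and clearly above it in set 4 alone, so it was not set above the stem gate. Ciita was 5.89-fold (2.19 to 22.3) higher in stem than in erythroid nuclei, on 61 and 4 UMIs.

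By barcode set, the summed level was 29.7, 40.5, 47.4 and 40.3 CPM in the stem gate and 6.59, 9.12, 13.2 and 37.5 CPM in the erythroid gate. Stem was thus 4.50, 4.44, 3.59 and 1.08-fold above erythroid. In set 4 the interval ran from 0.769 to 1.54, and 33 of the 40 erythroid class II UMIs came from 1 nucleus that the doublet score marked. Without set 4 the ratio over the table was 3.86, without doublet-marked nuclei 3.60 and with clusters made without class II genes 5.33. Stem nuclei had a median of 4524 UMIs and erythroid nuclei 8300.0. Class II was found in 13.5% of stem and 7.91% of erythroid nuclei, and in 6.95% (5.95 to 8.06%) and 2.50% (1.37 to 4.15%) after thinning to 2000 UMIs. Granulocyte primed nuclei were at 2.62% and lymphoid primed nuclei at 6.20% after thinning.

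Free RNA differed between barcode sets and was followed with Igkc, the immunoglobulin light chain of plasma cells. In the erythroid gate Igkc was at 105, 18.2, 609.6 and 21.5 CPM in sets 1 to 4, and in the stem gate at 226, 68.5, 512 and 21.1 CPM. Set 3 was highest in both gates, and in sets 1 and 2 the stem gate was above the erythroid gate. Igkc follows RNA of plasma cells and not that of dendritic nuclei, so the part of free class II RNA in the levels above was not tested. In sets 1 to 4 the stem gate held 22, 32, 74 and 86 Cd74 UMIs beside 565, 115, 1770 and 129 Igkc UMIs. The erythroid gate held 2, 0, 14 and 20 Cd74 UMIs beside 175, 4, 1431 and 23 Igkc UMIs. The number of Cd74 per Igkc UMI thus differed widely between sets and was not pooled over them.

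**Figure D4:**
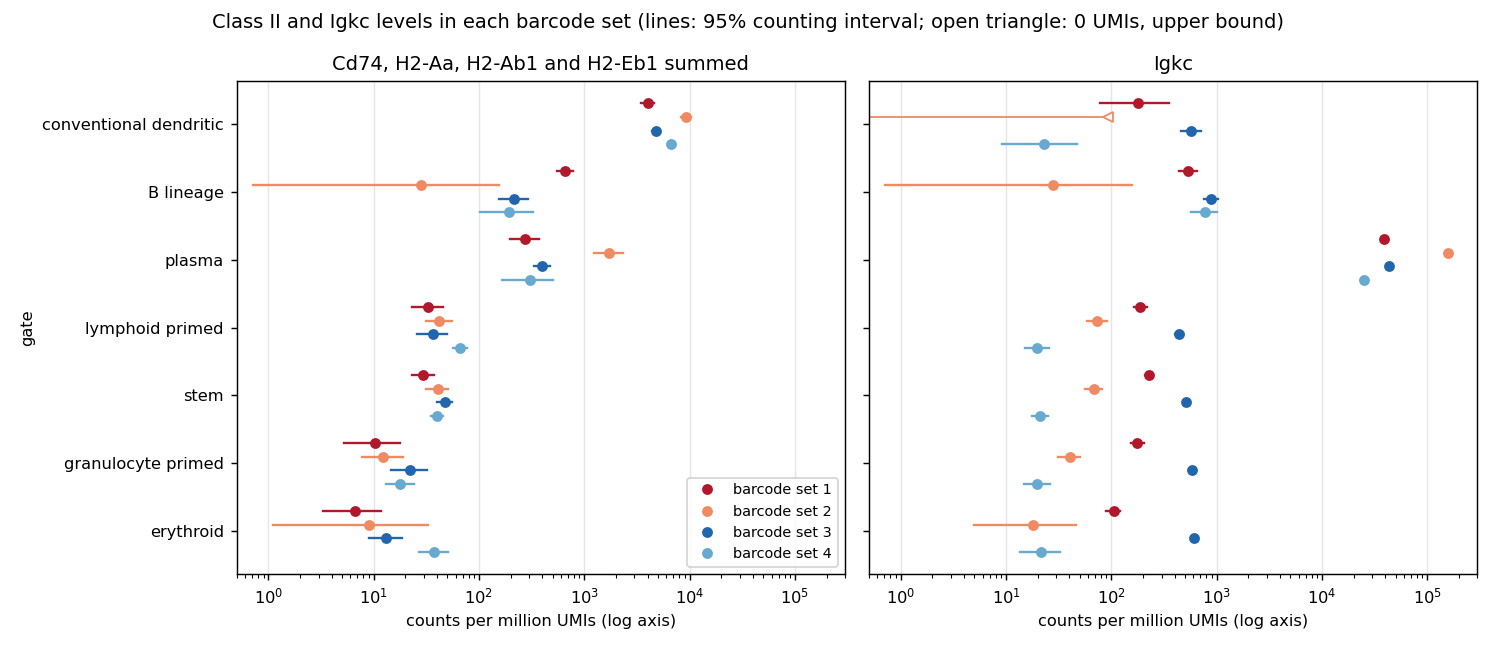
Summed class II level (left) and Igkc level (right), both in counts per 1000000 UMIs on a log axis, in 7 gates and the 4 barcode sets, with 95% counting intervals as lines. Igkc in the erythroid gate ranges from 18.2 to 609.6 CPM over the sets, and class II in the stem gate ranges from 29.7 to 47.4 CPM.

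Class II in the stem gate was spread over many nuclei with 1 UMI and concentrated in a few. Of 2487 nuclei, 2152 had no class II UMI, 264 had 1, 43 had 2 and 28 had at least 3, and those 28 carried 36.6% of the UMIs. Of these 28, 9 were marked by the doublet score and 4 met the dendritic list. In the nuclei under 3 class II UMIs the level was 25.9 CPM in the stem, 22.04 in the lymphoid primed, 15.5 in the granulocyte primed and 8.93 in the erythroid gate. These nuclei were separated by the measured value itself, so their levels are a description. In the lymphoid primed gate 12 of 951 nuclei carried 57.2% of class II UMIs, and 1 nucleus alone had 71.

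Among stem nuclei, class II per UMI was higher outside division. The 1283 nuclei without at least 2 division genes were at 55.8 CPM and the 1204 with them at 31.4 CPM, 1.78-fold (1.50 to 2.11). By set the ratio was 2.46, 2.97, 2.34 and 1.16, with an interval from 0.883 to 1.52 in set 4. The dividing nuclei were deeper, at a median of 6445 against 3416 UMIs, and the shares of nuclei with a class II UMI were close, 13.04% and 13.9%. The dividing nuclei held 275 class II UMIs and the others 277, and the part of depth in the difference was not tested. Nuclei with a UMI of Procr or Fgd5, genes of the most immature stem cells, were at 53.3 CPM and the rest at 33.4 CPM, 1.59-fold (1.34 to 1.89), and were higher in all 4 sets. Nuclei with a UMI of Vwf, a gene of platelet-biased stem cells, were at 76.2 CPM and the rest at 36.2 CPM. That ratio of 2.11 came from set 4 at 4.31, while sets 2 and 3 stood at 0.546 and 0.577 and set 1 at 1.56.

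In lymphoid primed nuclei the B cell factor Ebf1 and the receptor Il7r were set beside class II. The 269 nuclei with an Ebf1 UMI were at 83.4 CPM and the 682 without at 37.6 CPM. The shares of nuclei with a class II UMI were 15.2% and 14.1%, so the difference in level lay in few nuclei. Nuclei with an Il7r UMI were at 62.4 CPM and those without at 39.1 CPM, while 13.5% and 15.2% of them had a class II UMI. Of the 192 class II UMIs in the nuclei with an Il7r UMI, 71 came from 1 nucleus. The difference by Il7r thus leaned on that nucleus. Ciita had 17 UMIs in the nuclei with an Il7r UMI and 6 in those without, 5.52 and 1.86 CPM.

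Each gate was also compared with the stem gate over all genes, to place the members among them. A gene with at least 50 UMIs over both gates was measured, and it was called higher or lower when CPM plus 10 differed at least 2-fold, a rule of size and not a test. In dendritic against stem nuclei all 5 members were higher, with a median log2 ratio of 6.16, where 6.10% of 11048 genes were higher and 7.16% lower and the median gene was at -0.18. In B lineage against stem nuclei all 5 members were higher, with a median of 1.78, where 2.45% of 10999 genes were higher and 7.24% lower. In plasma against stem nuclei Cd74 and H2-Ab1 of the 5 were higher, where 3.63% of 10996 genes were higher and 25.3% lower, and the members' median was 0.44 where the median gene was at -0.59. In stem against erythroid nuclei none of the 5 passed, where 11.2% of 11391 genes were higher and 2.51% lower. The members' levels in the stem gate, 4.22 to 15.6 CPM, lie near the 10 CPM that was added.

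The other genes of the class II pathway went with the chain genes in dendritic nuclei. Of 12 further chain and loading genes, 8 were measured, 6 were higher and 1 lower than in stem nuclei. Over all genes, 6.10% were higher and 7.16% lower. H2-DMb1, part of the molecule that exchanges the Cd74 fragment for peptide, was at 163 and 7.86 CPM, 20.7-fold (15.4 to 27.7), and H2-DMa was at 74.9 and 19.8 CPM, 3.78-fold. H2-Ob, a brake on that exchange, was 6.25-fold higher. Ctss, the protease that cuts Cd74 in dendritic cells and B cells, was 19.04-fold higher, and Ctsl, which does so in thymic epithelium, was at 1.87 against 14.1 CPM. Ifi30, a lysosomal thiol reductase, was 21.4-fold higher (13.3 to 34.4). March1, a ubiquitin ligase that removes surface class II, was at 715 against 1.89 CPM, 378-fold (254 to 586). In plasma nuclei, 7 of these genes were measured, where 3.63% of all genes were higher and 25.3% lower. Ctss at 22.1-fold (17.4 to 28.04) and Ctsb, another lysosomal protease, at 2.30-fold (1.67 to 3.09) were higher, and H2-DMa was lower, with 1 UMI. In B lineage nuclei, where 2.45% of all genes were higher, H2-Ob was the 1 of 6 measured that was, at 2.78-fold (1.75 to 4.23). H2-DMa and H2-DMb1 were at 0.724 (0.288 to 1.51) and 0.781 (0.159 to 2.34) of the stem level there.

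The factors that bind class II promoters stood, as a set, near the median gene in dendritic and B lineage nuclei. Their median log2 ratio was -0.19 and -0.17, where the median gene was at -0.18 in both. None of the 7 (Rfx5, Rfxank, Rfxap, Nfya, Nfyb, Nfyc and Creb1) passed the 2-fold rule there. Few of all genes did, with 6.10% and 2.45% higher and 7.16% and 7.24% lower, so that count says little about these factors. Rfx5 was at 26.2 CPM in dendritic and 20.97 CPM in stem nuclei, and Creb1 at 275 and 236 CPM. In plasma nuclei Nfya was the 1 of 7 that was lower, at 31.7 against 133 CPM, where 25.3% of all genes were lower. The sequences shown above for H2-Aa and H2-Eb1 hold the letters of the elements that these factors are known to bind.

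Regulators of Ciita differed by lineage. In dendritic nuclei 6 of 10 measured were higher, where 6.10% of all genes were. Irf8 at 57.4-fold (49.99 to 65.99) and Ifngr1, a chain of the interferon gamma receptor, at 7.99-fold (6.79 to 9.38) led. Jak2, Ifngr2 and Spi1 stood at 3.72, 3.67 and 2.76-fold. In B lineage nuclei 5 of 12 were higher, where 2.45% of all genes were. Ebf1, a gene of the gate's own list, was at 434-fold and Pax5, also of that list, at 429.8-fold. The others were Irf4 at 127-fold (66.9 to 259.9), Ifngr2 at 5.14-fold and Irf8 at 4.04-fold. In plasma nuclei 3 of 12 were higher, where 3.63% of all genes were. Another 3 were lower, near the 25.3% of all genes that were lower there. Prdm1 at 683-fold, also of the gate's list, Irf4 at 490.2-fold (275 to 963) and Ebf1 at 15.4-fold were the higher ones. Spi1, Jak1 and Ezh2 were lower there, and Pax5 had no UMI. The stem gate had only 12 UMIs of Irf4, 21 of Pax5 and 7 of Prdm1, so these folds carry wide intervals.

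**Figure D5:**
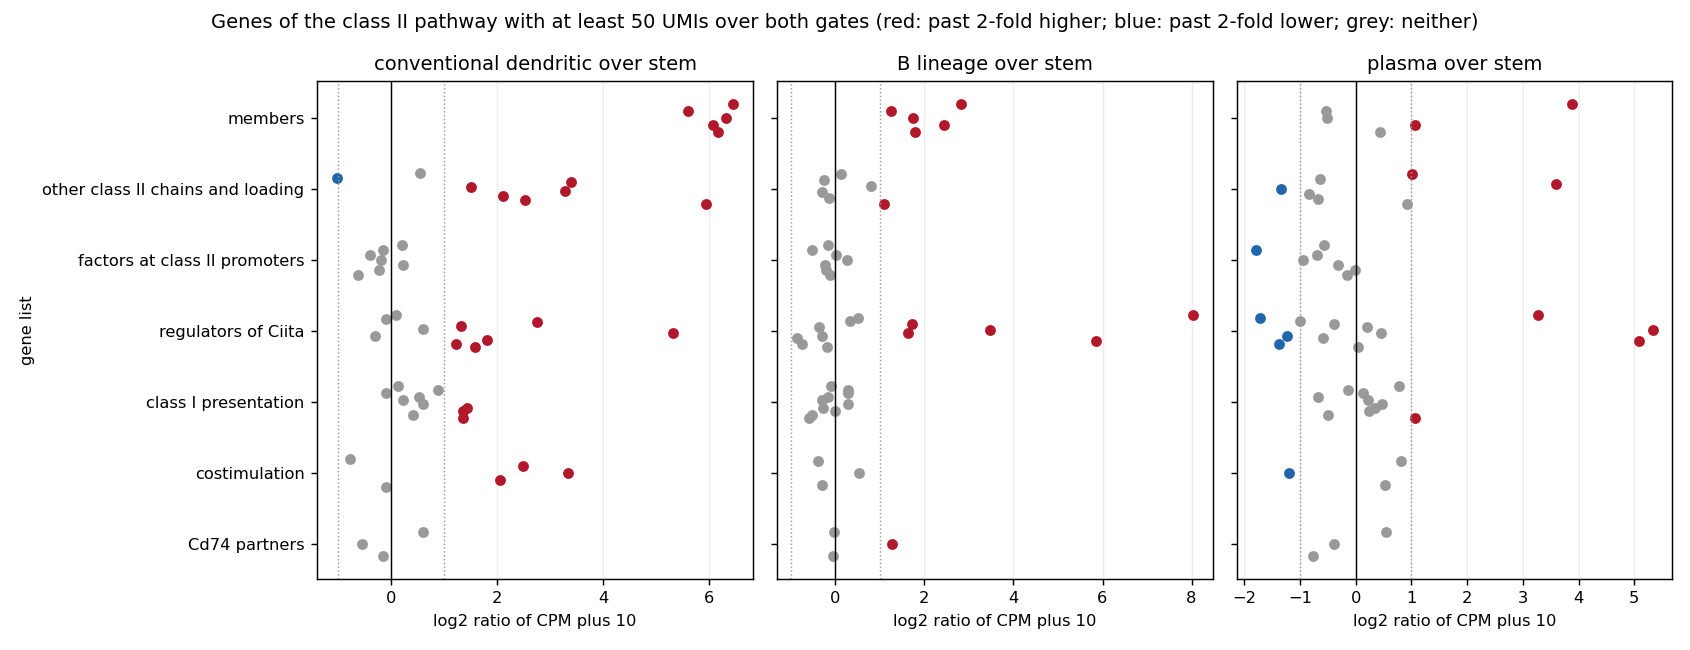
Log2 ratio of CPM plus 10 against the stem gate for each measured gene of 7 lists, in dendritic (left), B lineage (middle) and plasma nuclei (right). All 5 members lie to the right of the dotted 2-fold line in the first 2 panels and 2 of 5 in the third. The factors at class II promoters lie within the lines in the first 2. Over all genes, 6.10%, 2.45% and 3.63% were past 2-fold higher in the left, middle and right comparisons.

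The genes whose levels ran most like those of the chain genes over the 12 gates were listed among 9961 genes with at least 200 UMIs. By Pearson r of log2(CPM plus 10) with the mean of the 4 chain genes, they were Plekhm3 (r = 0.961), Pmaip1, Cd2ap, Adam19, Pld4, Irf5, Btla, Samhd1, March1 and Plekho1 (r = 0.913). For Ciita they were Zfp366 (r = 0.959), Cd86, Cadm1, March1, Clec9a, Naaa, Shtn1, Irf5, Pmaip1 and Kynu (r = 0.925). Irf5, March1 and Pmaip1 stood in both lists, and Cadm1, Clec9a and Naaa are markers that set the dendritic gate. All of these genes were highest in the dendritic gate, and a correlation over gates that share libraries, with one gate far above the rest, is a description. Among the members, H2-Ab1 and H2-Eb1 were most alike at r = 0.985. Cd74 was the least like the others, at 0.799 with H2-Aa and 0.804 with Ciita.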

How the data were processed

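RNA of LSK nuclei was measured with the 10x multiome assay. Per the submitters' processing notes, Cell Ranger ARC, Seurat and Signac were used with the build mm10. Their versions and the filters on nuclei were not stated there. UMI counts are as the authors deposited them, unnormalized (checked to be whole numbers). The table was treated as 1 sample, with 0 further columns of per-sample values left unused. The members and gene lists were chosen with earlier results of these data known.

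Gates needed at least 3 detected markers, ties were left ungated, and the plasma gate also needed 1% of UMIs from Jchain, Igkc and Igha. Counts were summed per gate and divided by the gate's UMIs (CPM, per 1000000). Intervals are exact at 95%: Poisson for CPM, binomial for ratios and Clopper-Pearson for shares. A count of 0 allows 3 counts. Genes with at least 50 UMIs over both gates were measured and called at 2-fold on CPM plus 10. Nuclei of under 2000 UMIs were left out when thinning. Named genes are the members, the 10 most alike over gates of at least 30 nuclei (at least 200 UMIs) and the 2 members of each list with the largest ratio. Others were chosen after their values were seen. The rules were tested on simulated data. All nuclei were kept as deposited, and a doublet score (highest 5% per set) served as an alternative. Clusters made without class II genes (2000 variable genes, 30 components, 15 neighbours, Leiden resolution 0.8) were another. Python 3.11.15, numpy 2.4.6, scipy 1.17.1, scikit-learn 1.9.0 and leidenalg 0.10.2 were used. The genotype comparison planned for the case that barcodes could be tied to samples was not run. The values of 1 gene of the list of Ciita regulators are not reported here.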

Additional observations from a re-analysis of the deposited data

How the results depend on the processing

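No paired analysis was possible because the barcode sets carry no genotype or replicate number. Of 77 alternative values for the 6 ratios, 52 stayed within the interval of the value reported, 25 moved outside it and 0 turned direction. For summed class II, dendritic over stem (153 as reported) was 139 with at least 4 markers, 97.99 with clusters made without class II genes, 212 without doublet-marked nuclei and 342 with the erythroid level of the same set subtracted. It ran from 135 to 177 when 1 barcode set was left out. B lineage over stem (9.17) was 4.96 with clusters, 12.1 without doublet-marked nuclei, 4.67 after thinning, 19.8 with the erythroid level subtracted and 6.95 as the mean of the sets. It ran from 4.43 without set 1 to 12.5 without set 3. Thinning left out 63 of 150 B lineage and 142 of 2487 stem nuclei as too shallow, so that value also rests on other nuclei. Plasma over stem (10.3) was 7.49 with clusters, 13.4 without doublet-marked nuclei, 22.3 with the erythroid level subtracted and 17.1 as the mean of the sets. Stem over erythroid (2.54) was 5.33 with clusters and 3.60 without doublet-marked nuclei, and ran from 2.11 to 3.86 when 1 set was left out. Ciita, dendritic over stem (155), was 104 with clusters. Only nuclei that met 1 marker list, a choice made after seeing the data, gave 209, 16.4, 12.9 and 3.46 for the 4 summed ratios in that order. In set 4 the erythroid level subtracted was 37.5 CPM, against 40.3 CPM in the stem gate. Of its 40 UMIs, 33 came from 1 doublet-marked nucleus. The cause of the moves in these ratios was not tested. Counts of genes past 2-fold also moved. With CPM plus 1, lower genes became 2293, 2248 and 5234 in dendritic, B lineage and plasma against stem (791, 796 and 2783 as reported). Higher genes in B lineage became 507 (270), and stem over erythroid became 2766 higher (1271) and 489 lower (286). With at least 200 UMIs, higher genes were 158 in B lineage and 247 in plasma (399). The Ciita value of the B lineage gate rests on 12 UMIs, which sets the width of its interval.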

Other observations

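Class I presentation genes, which nearly all nucleated cells carry, had a median log2 ratio of 0.57 in dendritic against stem nuclei, where the median gene was at -0.18. Of 10 genes, 3 were past 2-fold higher, where 6.10% of all genes were: Psmb9 at 3.25-fold (2.41 to 4.31), Tapbp at 2.88-fold (2.24 to 3.67) and Tap1 at 2.81-fold (2.23 to 3.49). The class I chain H2-K1 was at 511 CPM in dendritic and 546 CPM in stem nuclei, and its partner B2m at 440.2 and 402 CPM. Nlrc5, the class I counterpart of Ciita, was at 193 and 130.1 CPM. None of the 10 was past 2-fold in B lineage nuclei, where 2.45% of all genes were higher and 7.24% lower. In plasma nuclei, where 3.63% were higher and 25.3% lower, Tapbp alone was, at 2.33-fold (1.76 to 3.03) higher. B2m stood at 1.73-fold there.

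Of 5 measured costimulation genes, 3 were past 2-fold higher in dendritic nuclei, beside the same 6.10% of all genes: Cd80 at 35.5-fold (19.6 to 65.5), Icosl at 18.3-fold (10.1 to 32.6) and Cd86 at 14.4-fold (11.8 to 17.5). Cd274, which encodes PD-L1, was at 14.98 CPM in dendritic and 32.8 CPM in stem nuclei. It was 7.90-fold (5.15 to 12.7) higher in stem than in erythroid nuclei, where Cd86 was 7.54-fold (4.50 to 13.7) higher. In plasma nuclei Cd86 was lower, with 2 UMIs.

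Of the genes that act with Cd74 as a receptor, Cxcr4 was past 2-fold higher in B lineage nuclei at 2.88-fold (2.07 to 3.91). None of 3 measured was in dendritic or plasma nuclei. Over all genes, 2.45%, 6.10% and 3.63% were higher in B lineage, dendritic and plasma nuclei. Mif, the ligand of Cd74, was at 38.4 CPM in stem, 33.7 in dendritic, 36.9 in B lineage and 18.6 in plasma nuclei. Cd44, a coreceptor, was at 341 CPM in stem and 499 CPM in plasma nuclei. The 8 nuclei of the plasmacytoid dendritic gate, too few for a comparison, had 933 CPM of class II (591 to 1399) and 1 Ciita UMI.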
